A study of Mus musculus with 13 samples.

Results

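Chemokines are small secreted proteins that direct the migration of leukocytes, and their receptors are proteins of the plasma membrane that signal through G proteins. The chemokine ligand and receptor genes of the CC, CXC and CX3C families were examined here in mouse sciatic nerves, 5 d after a crush injury and in the uninjured nerve of the opposite side. The genes were chosen by symbol alone, as every protein-coding gene named Ccl, Cxcl, Cx3cl1, Ccr or Cxcr with a number. This gave 60 gene IDs of the 40787 in the count table, with 30 CC ligands, 12 CXC ligands, 1 CX3C ligand, 11 CC receptors and 6 CXC receptors. Of these, 19 reached 50 counts in at least 2 of the 13 libraries, and 9 held no count in any library.

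The study asked how mTORC1, a kinase complex that promotes growth, acts in Schwann cells (SCs) of injured nerves. RaptorKO mice carried floxed Rptor alleles, which encode the mTORC1 subunit Raptor, and a tamoxifen-inducible CreERT2 transgene that directs recombination to SCs among the cells of the nerve. Controls carried floxed Rptor alleles without Cre. Mice of both genotypes were on a C57BL/6 background, received tamoxifen at 2 months of age, and had 1 sciatic nerve crushed 2 months later. RNA was taken after removal of the epineurium, and in injured nerves it came from all of the nerve distal to the crush. The 13 libraries were sequenced from control contralateral (n = 3), RaptorKO contralateral (n = 4), control injured (n = 3), and RaptorKO injured nerves (n = 3).

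In nerve, chemokines are known for the recruitment of macrophages and other leukocytes to the segment that degenerates after injury. CC chemokines such as Ccl2 attract monocytes through receptors such as Ccr2. The CXC chemokine Cxcl12 acts through Cxcr4 and is also bound and removed by the atypical receptor Ackr3. Levels in a whole nerve sum over all of its cells, so that fewer cells of a type and less RNA per cell cannot be told apart.

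The families are named for the spacing of the first cysteines of the mature protein. The coding stretches that carry these cysteines are shown for the 4 genes whose levels differed between the genotypes, with the cysteine codons in capitals, each read from a GENCODE M21 transcript on the coding strand of GRCm38. All 4 lie in the second exon. In Ccl11 and Ccl12 the cysteine codons are adjacent, and in Cxcl12 and Cxcl14 they are separated by 1 codon.
Ccl11 (chr11:82061679-82061725, plus strand): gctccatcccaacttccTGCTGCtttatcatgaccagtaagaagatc
Ccl12 (chr11:82102611-82102663, plus strand): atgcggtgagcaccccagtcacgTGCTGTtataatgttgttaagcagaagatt
Cxcl12 (chr6:117171484-117171540, plus strand): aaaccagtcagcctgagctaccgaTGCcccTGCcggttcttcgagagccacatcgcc
Cxcl14 (chr13:56295891-56295931, minus strand): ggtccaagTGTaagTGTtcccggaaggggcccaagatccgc

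Library totals ranged from 8200458 to 13581775 estimated counts. Values are CPM, the counts of a gene per 1000000 counts of its library after correction of library sizes with edgeR's TMM factors, and levels of different genes are compared only as CPM per kilobase of exon. Rptor, the targeted gene, ranged from 43.6 to 52.2 CPM in control and from 22.1 to 27.8 CPM in RaptorKO contralateral nerves, and from 35.0 to 49.5 CPM in control and from 23.3 to 28.8 CPM in RaptorKO injured nerves. The 10 SC markers were above 0 in every library. Both control libraries with the replicate number 3 differed from the other 11 in the sex-linked gene Xist, with 15017 counts (contralateral) and 14462 counts (injured) against at most 17. RaptorKO contralateral replicate 3 held 283 summed CPM of 5 adipocyte markers, against at most 88 in any other library. The interaction of Cxcl12 is also given without both of these control libraries, and calls that rest on RaptorKO contralateral replicate 3 are named as such.

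Ccl11 and Cxcl12 had the highest levels per kilobase in contralateral nerves of both genotypes. Summed over all 60 IDs, chemokine and receptor transcripts made up 274 to 288 CPM in control and 400 to 451 CPM in RaptorKO contralateral nerves. Ccl11, an attractant of eosinophils also called eotaxin, had the highest level per kilobase in all 4 groups. In control contralateral nerves Ccl11 averaged 81.8 CPM per kilobase, followed by Cxcl12 with 15.2 and Ccl27a with 6.36 CPM per kilobase. All 16 other passing members lay at or below 3.31 CPM per kilobase there. After injury the summed level was 707 to 1080 CPM in control and 935 to 1500 CPM in RaptorKO nerves, of which receptors made up 101 to 215 CPM.

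The order also differed. In control injured nerves Ccl11 averaged 207 CPM per kilobase, followed by Ccl6 with 69.5, Ccl8 with 50.2, Ccl9 with 36.5 and Cxcl14 with 33.2 CPM per kilobase, while Cxcl12 came 13th with 5.61. In RaptorKO injured nerves Cxcl14 came second after Ccl11, with 86.4 CPM per kilobase. These are orders of means, and neighbouring genes were not tested against each other.

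The injury comparison in controls asked which of these genes changed in the nerve distal to the crush. A gene was called at a Benjamini-Hochberg adjusted p below 0.05 in edgeR's quasi-likelihood test with a fold change above 1.2. Of 17 members tested, 14 were higher in injured control nerves, 2 were lower, and 1 (Ccl25) was not called. Over all genes tested, 32.4% were called higher and 32.9% lower. The median log2 fold change was 3.37 over the members and -0.0015 over all genes. Many members reached the count minimum only in the injured libraries and could therefore hardly fail to differ, so the count describes these genes and does not set them apart.

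Of the CC ligands, Ccl8, a monocyte attractant also called MCP-2, showed the highest log2 fold change. It held 6, 0 and 3 counts in the 3 control contralateral libraries and 405, 247 and 168 counts in the injured ones, a log2 fold change of 6.47 (SE 0.53, edgeR adjusted p = 4.92e-07). With so few counts in the uninjured nerves the size of this change is loosely fixed, and it ranged from 5.83 to 7.41 over the alternatives. The monocyte attractants Ccl2 and Ccl7 rose from means of 1.87 and 1.19 CPM to 28.6 and 12.3 CPM. The macrophage chemokines Ccl6 and Ccl9, which are rodent genes, reached 125 ± 35.7 and 111 ± 43.6 CPM (SD, n = 3) from 5.94 ± 0.862 and 6.75 ± 2.28 CPM. Ccl11 rose least of the called CC ligands, by a log2 fold change of 1.29 (SE 0.2, adjusted p = 0.000141).

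Of the CXC ligands, Cxcl14, a chemokine of epithelia and stroma, showed the third-highest log2 fold change of all members. It stood at 3.44, 0.891 and 0.779 CPM in control contralateral and at 59.9, 73.2 and 49.0 CPM in control injured libraries, a log2 fold change of 5.10 (SE 0.37, adjusted p = 1.58e-07). Every injured library was far above every contralateral one. Of all genes tested in this comparison, 70.9% had groups that did not overlap. Cxcl16, which is made as a membrane protein and is a ligand of Cxcr6, rose by 3.37 (SE 0.15, adjusted p = 1.9e-09), and the interferon-induced Cxcl10 by 2.08 (SE 0.39, adjusted p = 0.000491). Cx3cl1, which is also made as a membrane protein and is the ligand of Cx3cr1, rose from 7.90 ± 1.14 to 13.5 ± 1.01 CPM (SD, n = 3), a log2 fold change of 0.73 (SE 0.2, adjusted p = 0.00701).

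Cxcl12 and Ccl27a, both known as chemokines of uninflamed tissue, fell. Cxcl12 stood at 125, 120 and 128 CPM in control contralateral and at 44.9, 40.3 and 52.4 CPM in control injured libraries, a log2 fold change of -1.48 (SE 0.11, adjusted p = 1.94e-07). Ccl27a stood at 12.3, 15.3 and 17.7 CPM and then at 4.07, 4.95 and 3.62 CPM, a log2 fold change of -1.89 (SE 0.23, adjusted p = 1.7e-05). In neither gene did the groups overlap, as in 70.9% of all genes tested in this comparison. Ccl27a shares its locus with Il11ra1 on the other strand, and the sources used here do not give whether strand was used in counting. The same holds for Ccl2 (Gm17268), Ccl25 (Elavl1), Ccl6 (E230016K23Rik), Cxcl10 (Art3) and Cxcl16 (Zmynd15).

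Receptor genes rose as well. Ccr1, a receptor of Ccl3 and of other macrophage chemokines, stood at 0.543, 0.891 and 0.974 CPM in control contralateral and at 30.8, 42.5 and 24.5 CPM in control injured libraries, a log2 fold change of 5.28 (SE 0.29, adjusted p = 1.52e-08). The groups were far apart. Ccr2, the receptor of Ccl2, rose by 4.33 (SE 0.21, adjusted p = 4.67e-09) and Cxcr4, the receptor of Cxcl12, by 3.16 (SE 0.17, adjusted p = 1.16e-08). Of 12 macrophage markers, 11 were also called higher, with summed levels of 321 to 387 CPM in control contralateral and 3310 to 4170 CPM in control injured nerves. All 12 were above 0 in every library, and their part in the changes of the receptors was not tested.

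In RaptorKO nerves 17 members were tested, of which 14 were higher after injury and 2 lower, against 30.5% and 28.5% of all genes. The median log2 fold change was 3.72 over the members and 0.028 over all genes. This median is not set against that of control nerves, as Ccl12 was tested only here and Cxcl10 only in control nerves. No library was shared between the injury comparisons. Of the 16 members tested in both genotypes, 13 were called higher and 2 lower in both. Of these 13, 9 had the larger log2 fold change in control nerves. None of the 13 was called in the interaction of genotype and injury, given below. How many of all genes were called in both genotypes was not counted. Ccl8 rose by 7.15 (SE 0.5, edgeR adjusted p = 6.62e-07), from 2, 0, 1 and 4 counts to 307, 222 and 382 counts. Cxcl14 rose by 5.67 (SE 0.28, adjusted p = 6.15e-08) and Ccr1 by 5.25 (SE 0.55, adjusted p = 1.45e-05). Ccl12, a monocyte attractant also called MCP-5, reached the minimum only in this genotype and rose by 4.04 (SE 0.52, adjusted p = 6.13e-05). With no count minimum it was also called higher in control nerves (log2 fold change 3.8, edgeR adjusted p = 2.92e-07), so its rise was not particular to RaptorKO nerves. Ccl27a was lower by a log2 fold change of -1.85 (SE 0.2, adjusted p = 2.13e-05) and Cxcl12 by one of -0.66 (SE 0.12, adjusted p = 0.000939).

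**Figure D1:**
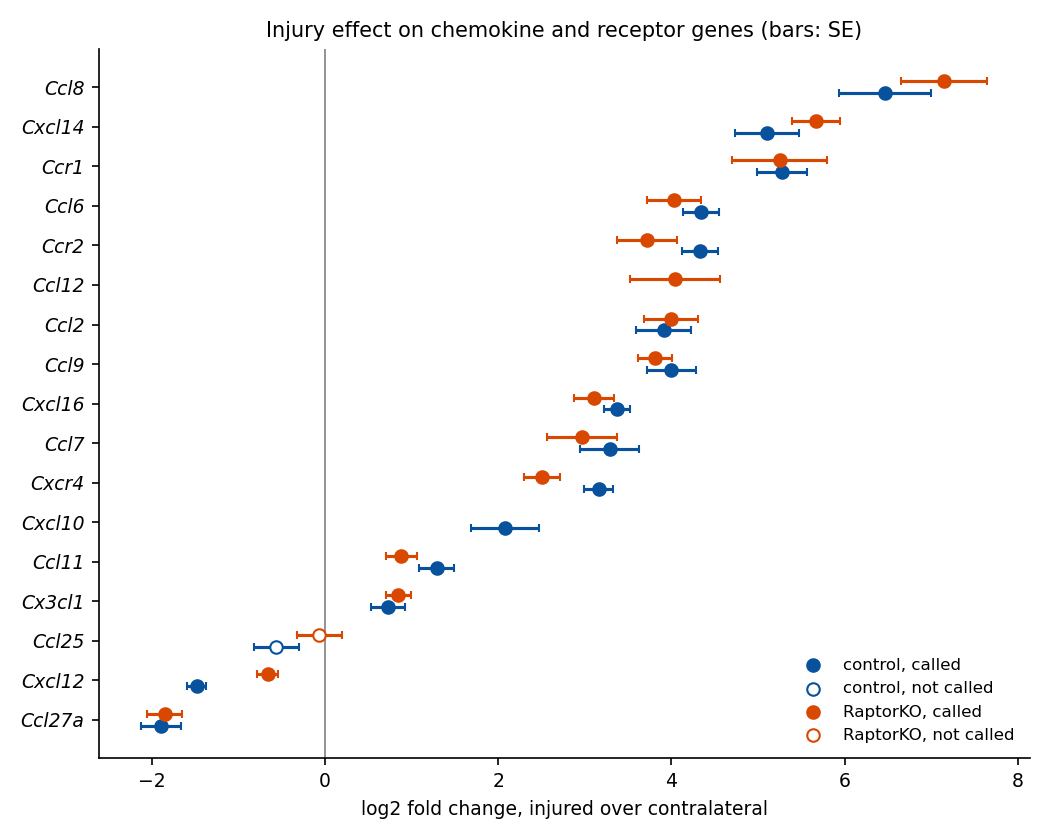
Log2 fold changes of the members reported, injured over contralateral nerves, in control (blue) and RaptorKO mice (orange), with bars for the SE and filled points for called genes. Ccl8 is at the top in both genotypes, with 6.47 in control and 7.15 in RaptorKO nerves, and Cxcl12 and Ccl27a are below 0 in both.

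The genotype comparison in injured nerves asked which of these genes differ when Raptor is lost from SCs of the crushed nerve. Of 19 members tested, 3 were higher in RaptorKO injured nerves (Cxcl14, Cxcl12 and Ccl12) and 0 were lower, against 4.09% of all 12040 genes called higher and 4.44% called lower. Of the 16 others, 3 more had an unadjusted p below 0.05 in edgeR's test. That made 6 of the 19 members, beside 2594 of all 12040 genes. The control injured libraries also enter the injury comparison in controls, so these results are not independent. Ccl12 reached the count minimum only through the RaptorKO libraries, so its place in this count is a description and no support. The log2 fold change was above 0 for 17 of the 19 and for 6043 of all 12040 genes, and its median was 0.19 over the members and 0.0014 over all genes.

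Cxcl14 (ENSMUSG00000021508, chromosome 13, 56288643 to 56296551, minus strand) stood at 59.9, 73.2 and 49.0 CPM in control injured libraries and at 131, 182 and 161 CPM in RaptorKO injured libraries. The lowest RaptorKO library was well above the highest control library. The log2 fold change was 1.40 (SE 0.16, edgeR adjusted p = 0.000687), and it ranged from 1.27 to 1.55 over the 15 alternatives, all of them called.

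Cxcl12 (ENSMUSG00000061353, chromosome 6, 117168535 to 117181367, plus strand), also called SDF-1, stood at 44.9, 40.3 and 52.4 CPM in control injured and at 97.9, 93.9 and 102 CPM in RaptorKO injured libraries. The groups were far apart, and the means were 45.9 ± 6.11 and 97.8 ± 3.87 CPM (SD, n = 3 each). The log2 fold change was 1.11 (SE 0.12, adjusted p = 0.000687), with a range of 1.02 to 1.22 over the 15 alternatives, all of them called.

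Ccl12 (ENSMUSG00000035352, chromosome 11, 82101845 to 82103400, plus strand) stood at 4.25, 2.80 and 3.32 CPM in control injured and at 10.3, 4.97 and 13.2 CPM in RaptorKO injured libraries. These are 46, 30 and 34 counts against 115, 63 and 143, so that the RaptorKO libraries alone passed the minimum of 50 counts. The groups did not overlap, but RaptorKO injured replicate 2 lay close to the controls. The log2 fold change was 1.46 (SE 0.36, adjusted p = 0.03). The call was lost without control injured replicate 1 (adjusted p = 0.0529), 2 (0.117) or 3 (0.0954), and without RaptorKO injured replicate 1 (0.11) or 3 (0.0972).

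**Figure D2:**
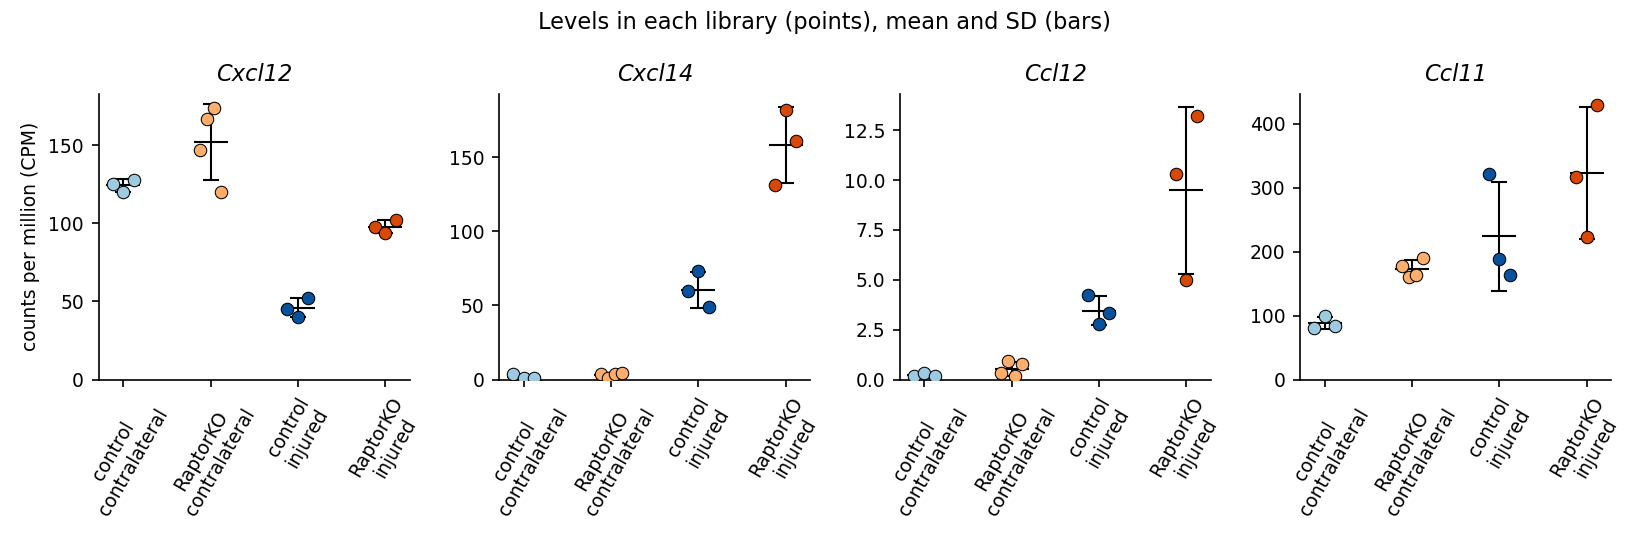
CPM of Cxcl12, Cxcl14, Ccl12 and Ccl11 in each of the 13 libraries (points) by group, with the mean and SD as bars. Cxcl12 lies at 40.3 to 52.4 CPM in control injured and at 93.9 to 102 CPM in RaptorKO injured libraries, and Ccl11 at 81.3 to 100 CPM in control contralateral and at 160 to 190 CPM in RaptorKO contralateral libraries.

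The other CC ligands were not called in injured nerves. Ccl7 stood at 13.1, 11.6 and 12.2 CPM in control and at 13.4, 16.9 and 24.3 CPM in RaptorKO injured libraries (log2 fold change 0.58, SE 0.22, adjusted p = 0.149). Ccl2 had a log2 fold change of 0.52 (SE 0.22, adjusted p = 0.204) and Ccl11 one of 0.55 (SE 0.26, adjusted p = 0.241). Control injured replicate 1 held 321 CPM of Ccl11, against 188 and 163 CPM in the other control injured libraries. Without it the log2 fold change of Ccl11 was 0.89 and the call was made (adjusted p = 0.0474). Log2 fold changes were smaller for Ccl9 (0.39), Ccl3 (0.17), Ccl25 (0.17), Ccl27a (0.16), Ccl8 (0.08) and Ccl6 (0.05), with adjusted p from 0.408 to 0.954.

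Cx3cl1 was not called, although its groups did not overlap. It stood at 12.4, 13.7 and 14.4 CPM in control and at 21.1, 16.9 and 19.4 CPM in RaptorKO injured libraries (log2 fold change 0.52, SE 0.17, adjusted p = 0.0881). Groups that do not overlap were found for 26.2% of all genes in this comparison. Cxcl16 differed by 0.12 (SE 0.16, adjusted p = 0.739). Cxcl10 and Cxcr4 were the only members below 0, with log2 fold changes of -0.43 (SE 0.32, adjusted p = 0.501) and -0.23 (SE 0.16, adjusted p = 0.459). The receptors Ccr1 and Ccr2 each differed by 0.19, with an SE of 0.28. In both RaptorKO injured replicate 2 was the lowest and replicate 3 the highest of the 6 injured libraries, with Ccr2 at 32.2 and 86.3 CPM, and the summed macrophage markers were lowest in replicate 2 as well, at 2370 CPM against 3310 to 4600 in the other 5.

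Ccl12 lies in a cluster of monocyte and eosinophil attractants on chromosome 11, in the order Ccl2, Ccl7, Ccl11, Ccl12, Ccl8 and Ccl1 from 82035571, and these neighbours differed in mean level. Differences between them in the genotype effect were not tested. Ccl11 averaged 299 CPM per kilobase in RaptorKO injured nerves, whereas Ccl12 averaged 17.7 and Ccl8 52.3 CPM per kilobase. Ccl8 starts 79.6 kb from the start of Ccl2, and Ccl12 66.3 kb. Ccl8 stood at 37.4, 23.1 and 16.4 CPM in control injured and at 27.5, 17.5 and 35.2 CPM in RaptorKO injured libraries, so that the groups of Ccl8 overlapped, as did those of Ccl2 and Ccl11, where those of Ccl12 and Ccl7 did not. Ccl1 held no count in any library.

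**Figure D3:**
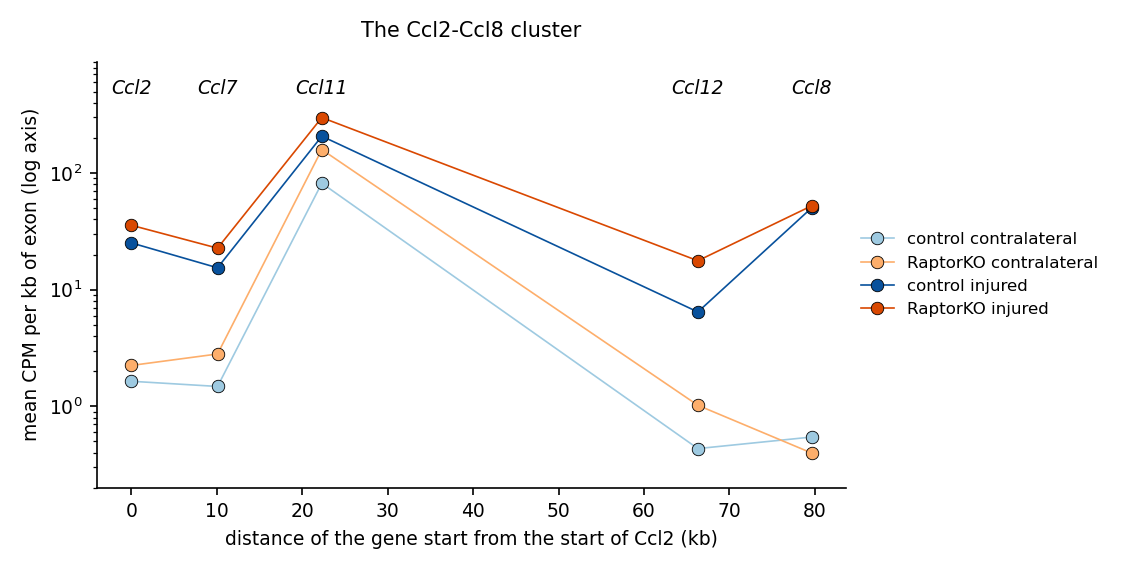
Mean CPM per kilobase of exon (log axis) of the 5 passing genes of the cluster against the distance of the gene start from that of Ccl2, by group. Ccl11 is highest in all 4 groups, Ccl12 shows 6.44 in control and 17.7 CPM per kilobase in RaptorKO injured nerves, and Ccl8 50.2 and 52.3.

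The 250 bases before the start of the 3 genes called in injured nerves, and of Ccl8 as the neighbour of Ccl12, are shown from the RefSeq promoter table of GRCm38.p6. The table held 39 of the 55 member symbols. Ccl2, Ccl7, Ccl11 and Cxcl16 are passing members with no entry. Capitals mark matches, on either strand, to a TATA box (TATAAA), an AP-1 motif (TGANTCA), an NF-kappaB-like motif (GGNNTTTCC) or an interferon-response-like motif (GAAANNGAA).
Cxcl12 (chr6:117168285-117168534, plus strand): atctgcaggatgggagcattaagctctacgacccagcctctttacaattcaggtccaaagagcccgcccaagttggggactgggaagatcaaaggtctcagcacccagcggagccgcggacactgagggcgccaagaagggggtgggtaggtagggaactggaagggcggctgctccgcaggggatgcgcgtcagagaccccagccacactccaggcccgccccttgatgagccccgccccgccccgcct
Cxcl14 (chr13:56296552-56296801, minus strand): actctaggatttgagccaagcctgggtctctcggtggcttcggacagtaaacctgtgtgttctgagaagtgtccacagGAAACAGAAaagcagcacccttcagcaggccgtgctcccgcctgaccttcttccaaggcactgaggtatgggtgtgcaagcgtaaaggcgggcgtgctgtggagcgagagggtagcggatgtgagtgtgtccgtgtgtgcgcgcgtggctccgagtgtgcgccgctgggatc
Ccl12 (chr11:82101595-82101844, plus strand): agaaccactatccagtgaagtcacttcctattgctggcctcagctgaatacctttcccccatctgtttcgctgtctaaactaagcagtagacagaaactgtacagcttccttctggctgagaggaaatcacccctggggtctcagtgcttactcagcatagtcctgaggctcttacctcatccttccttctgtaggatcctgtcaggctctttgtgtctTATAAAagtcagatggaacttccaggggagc
Ccl8 (chr11:82114935-82115184, plus strand): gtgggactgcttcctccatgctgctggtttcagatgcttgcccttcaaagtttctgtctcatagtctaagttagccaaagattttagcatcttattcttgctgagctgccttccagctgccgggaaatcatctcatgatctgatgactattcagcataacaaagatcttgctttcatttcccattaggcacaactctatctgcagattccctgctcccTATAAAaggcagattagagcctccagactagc

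The searched window ran from 250 bases before to 50 bases after the start. Ccl12 and Ccl8 each held a TATA box, first letter 31 and 32 bases before the start, and Cxcl14 held an interferon-response-like match 172 bases before it. The Cxcl12 window matched none of the 4 motifs. Over all 32851 promoters of the table, TATAAA was found in 13.6%, TGANTCA in 7.81%, GGNNTTTCC in 5.82% and GAAANNGAA in 8.56%. Of the 14 passing members with a promoter, 6 held TATAAA, 3 TGANTCA, 2 GGNNTTTCC and 4 GAAANNGAA. Cxcl10 and Ccl9 were the members that held both TGANTCA and GGNNTTTCC. These are matches of letters and were not tested as binding sites.

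The genotype comparison in contralateral nerves asked the same without injury. Of 9 members tested, 1 was higher in RaptorKO nerves and 0 were lower, against 4.49% of all 11878 genes called higher and 5.68% called lower. The median log2 fold change was 0.41 over the members and 0.012 over all genes. The called gene was Ccl11 (ENSMUSG00000020676, chromosome 11, 82057823 to 82062955, plus strand), at 81.3, 100 and 84.1 CPM in control and at 177, 160, 164 and 190 CPM in RaptorKO contralateral libraries. Every RaptorKO library was well above every control library. The log2 fold change was 0.99 (SE 0.1, edgeR adjusted p = 0.000209), and it ranged from 0.93 to 1.09 over the 16 alternatives, all of them called.

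Of the 8 others, 3 had an unadjusted p below 0.05 in edgeR's test and none passed the adjustment. With Ccl11 that made 4 of the 9 members, beside 2955 of all 11878 genes. Cxcl12 stood at 125, 120 and 128 CPM in control and at 147, 167, 174 and 120 CPM in RaptorKO contralateral libraries (log2 fold change 0.32, SE 0.11, adjusted p = 0.108). RaptorKO contralateral replicate 4 was within the controls, and without it the call was made (0.41, adjusted p = 0.0139). Cx3cl1 had groups that did not overlap, as 23.7% of all genes in this comparison, at 8.87, 6.64 and 8.18 CPM in control and at 11.1, 10.5, 9.26 and 10.8 CPM in RaptorKO libraries (0.42, SE 0.18, adjusted p = 0.175). Ccl9 differed by 0.59 (SE 0.25, adjusted p = 0.167), Cxcr4 by 0.45 (SE 0.27, adjusted p = 0.344), Cxcl16 by 0.41, Ccl6 by 0.39, Ccl27a by 0.15 and Ccl25 by -0.29, with adjusted p from 0.393 to 0.667 for the last 4.

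**Figure D4:**
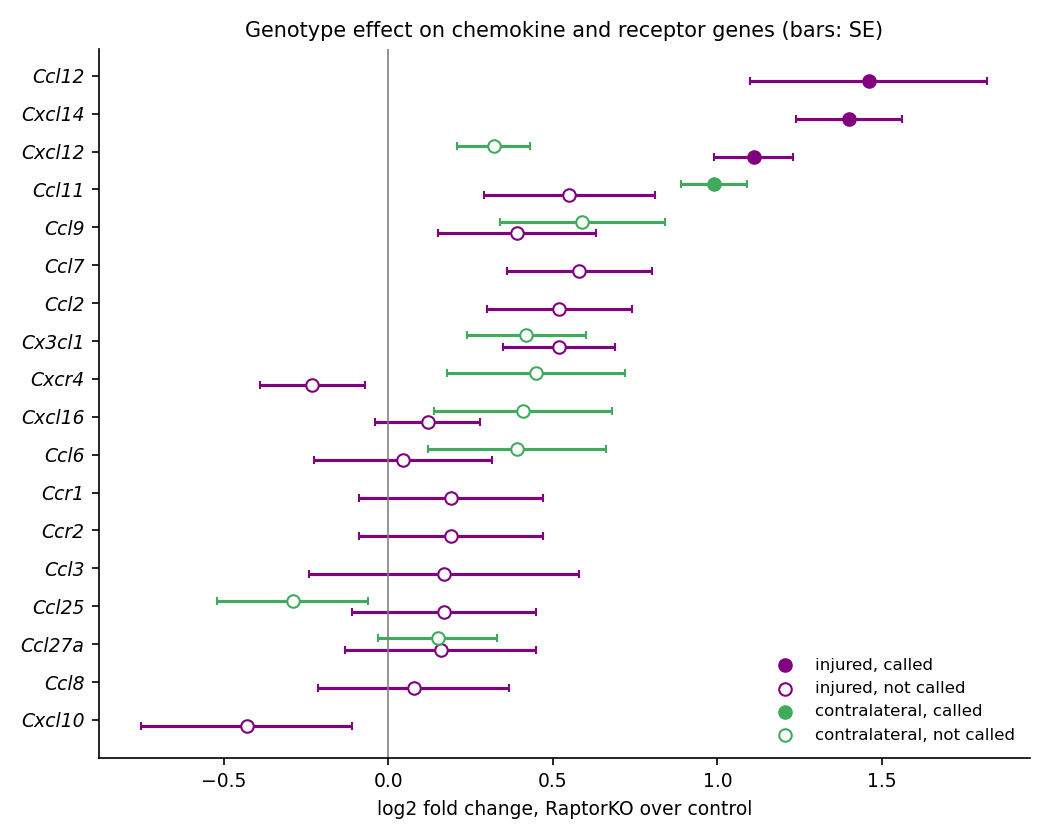
Log2 fold changes of the members reported, RaptorKO over control, in injured (purple) and contralateral nerves (green), with bars for the SE and filled points for called genes. The 3 genes called in injured nerves lie at 1.11 to 1.46, and Ccl11 is the called gene in contralateral nerves, at 0.99.

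Whether the genotype effect itself differed between injured and contralateral nerves was tested with an interaction term over all 13 libraries. Of 19 members, 1 was called higher and 0 lower, against 1.07% and 1.41% of all 12851 genes. The gene was Cxcl12, with an interaction of 0.80 on the log2 scale (SE 0.17, edgeR adjusted p = 0.0256). Its mean after injury was 45.9 CPM against 124 in the uninjured nerve in controls, and 97.8 against 152 CPM in RaptorKO nerves. The estimate ranged from 0.70 to 0.91 over 19 alternatives, but the adjusted p rose to between 0.0531 and 0.0707 when any of 7 single libraries was left out (control contralateral 1, 2 or 3, RaptorKO contralateral 1, control injured 1 or 2, or RaptorKO injured 1). Without both control libraries with the number 3 it was 0.89 (adjusted p = 0.0492). Cxcr4 had an interaction of -0.67 (SE 0.27, adjusted p = 0.27), Cxcl14 one of 0.55 (SE 0.56, adjusted p = 0.757), Ccl12 one of 0.26 (SE 0.84, adjusted p = 0.948) and Ccl11 one of -0.43 (SE 0.32, adjusted p = 0.622). Cxcl14 and Ccl12 held few counts in contralateral nerves, and the errors of their interactions were wide.

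Markers of other cells moved with these results. In injured nerves all 8 endothelial markers were called higher in RaptorKO, with summed levels of 364, 452 and 523 CPM in control and 726, 1080 and 750 CPM in RaptorKO libraries, and 2 of the 6 fibroblast markers tested were called higher. Per 1000 summed CPM of endothelial markers, a ratio chosen after the values were seen, Cxcl12 stood at 124, 89.1 and 100.0 CPM in control and at 135, 86.8 and 135 CPM in RaptorKO injured libraries, so that the groups overlapped. By the same ratio Cxcl14 stood at 165, 162 and 93.5 CPM in control and at 181, 168 and 214 CPM in RaptorKO libraries, which did not overlap. Ratios to fibroblast markers were also chosen after the values were seen. Per 1000 summed CPM of these, Cxcl12 stood at 4.81, 5.84 and 8.23 CPM in control injured libraries. In RaptorKO injured libraries it stood at 9.23, 11.4 and 7.84 CPM, so that the groups overlapped. For Cxcl14 the values were 6.41, 10.6 and 7.69 against 12.3, 22.2 and 12.4 CPM, which did not overlap. Between the genotypes in contralateral nerves, edgeR called 0 of the 8 endothelial markers, and 0 had an unadjusted p below 0.05. No endothelial, fibroblast or macrophage marker was at 0 in any library.

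For Ccl12 the macrophage markers are the nearest list. Of 12 macrophage markers, 0 were called in injured nerves, and 0 had an unadjusted p below 0.05 in edgeR's test. Per 1000 summed CPM of these markers Ccl12 stood at 1.02, 0.681 and 1.0 CPM in control and at 2.24, 2.1 and 2.96 CPM in RaptorKO injured libraries, with no overlap. In contralateral nerves 3 of 7 fibroblast markers and 6 of the 10 macrophage markers tested were called higher in RaptorKO. The summed fibroblast markers were 6440 to 7370 CPM in control and 9380 to 12500 CPM in RaptorKO libraries. Per 1000 summed CPM of fibroblast markers Ccl11 stood at 12.6, 13.6 and 12.3 CPM in control and at 15.7, 16.6, 13.1 and 20.2 CPM in RaptorKO contralateral libraries, where replicate 3, at 13.1, fell among the controls. In injured nerves 5 of 6 mast cell markers tested were also called higher in RaptorKO. The part of these cells in the levels of the chemokines was not tested.

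**Figure D5:**
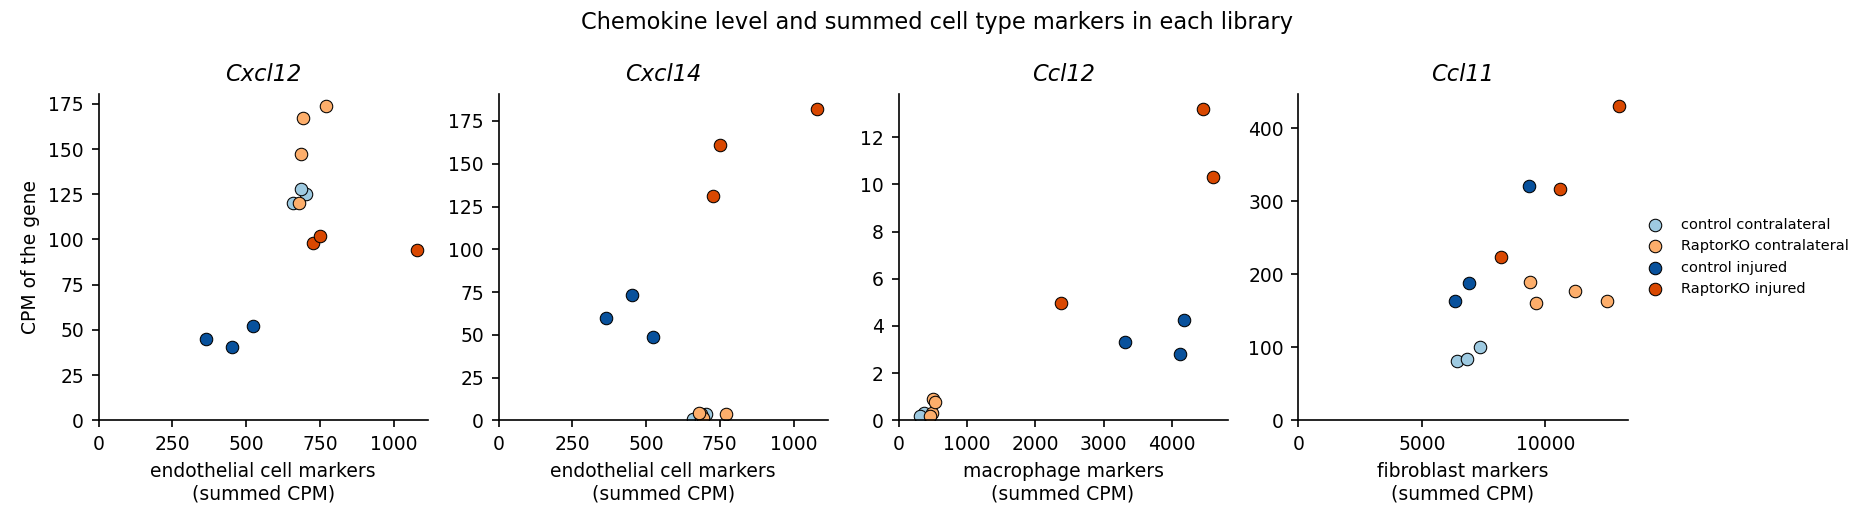
CPM of Cxcl12 and Cxcl14 against the summed CPM of endothelial markers, of Ccl12 against macrophage markers, and of Ccl11 against fibroblast markers, 1 point per library, colored by group. RaptorKO injured libraries lie to the right of control injured libraries for the endothelial markers (726 to 1080 against 364 to 523 CPM), and for Ccl12 at 2370 to 4600 against 3310 to 4170 CPM of macrophage markers.

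Genes that act beside these families were read from a list of 13 other chemokine-system genes. In injured nerves 7 were tested and 1 was called higher in RaptorKO, beside 4.09% of all genes called higher and 4.44% called lower. In contralateral nerves 6 were tested, and 1 was called higher and 1 lower in RaptorKO, beside 4.49% and 5.68% of all genes. Ackr3, the scavenging receptor of Cxcl12, was higher in RaptorKO injured nerves, at 42.6, 33.4 and 48.2 CPM against 27.7, 17.1 and 22.6 CPM in control (log2 fold change 0.90, SE 0.19, edgeR adjusted p = 0.0152). After injury Ackr3 fell in both genotypes, with log2 fold changes of -1.55 (SE 0.22, adjusted p = 6.02e-05) in control and -1.10 (SE 0.33, adjusted p = 0.0146) in RaptorKO nerves, as did Cxcl12, whereas Cxcr4 rose in both. Ackr1, which binds many inflammatory chemokines and is known from venules and erythroid cells, was lower in RaptorKO contralateral nerves, at 42.7, 48.1, 36.3 and 36.7 CPM against 73.2, 66.1 and 72.9 CPM (-0.76, SE 0.11, adjusted p = 0.00203). It fell less after injury in RaptorKO than in control nerves, by an interaction of 1.22 (SE 0.19, adjusted p = 0.00334).

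Cx3cr1, the receptor of Cx3cl1 on macrophages, rose after injury by 5.12 in control (SE 0.28, adjusted p = 1.33e-08) and 3.12 in RaptorKO nerves (SE 0.3, adjusted p = 7.35e-06), with an interaction of -2.02 (SE 0.49, adjusted p = 0.0415). It stood at 1.27, 0.648 and 1.27 CPM in control and at 3.59, 3.59, 4.25 and 2.92 CPM in RaptorKO contralateral libraries, and at 36.5, 48.4 and 29.0 against 34.0, 17.4 and 45.1 CPM after injury. The groups were apart in contralateral and overlapped in injured nerves. Cmklr1, the receptor of chemerin, was higher in RaptorKO contralateral nerves (log2 fold change 1.2, SE 0.26, adjusted p = 0.0151), while Rarres2, which encodes chemerin, differed there by -0.37 (SE 0.11, adjusted p = 0.0538).

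Genes downstream of the receptors and genes of inflammatory signalling were read from further lists. Of 30 chemokine receptor signalling genes, 19 were called higher and 7 lower after injury in controls, of 27 tested, and 21 and 7 in RaptorKO nerves, of 30 tested, beside 32.4% and 32.9% of all genes in control and 30.5% and 28.5% in RaptorKO nerves. The median log2 fold change of the list was 1.0 in control and 1.51 in RaptorKO nerves, against -0.0015 and 0.028 over all genes. These medians cover 27 and 30 genes and are not set against each other. In the interaction of genotype and injury the median of the 30 was -0.14, with 8 above 0, against -0.01 over all genes. Pik3r5, a regulatory subunit of PI3K-gamma, and Rac2, a GTPase of leukocytes, rose by 5.53 (SE 0.21, edgeR adjusted p = 7.36e-10) and 4.64 (SE 0.22, adjusted p = 3.94e-09) in control nerves, and by 3.84 (SE 0.27, adjusted p = 7.51e-07) and 3.54 (SE 0.33, adjusted p = 5.37e-06) in RaptorKO nerves. Pik3r5 was the 1 gene of the 30 called in the interaction, where it was lower (-1.71, SE 0.41, adjusted p = 0.0403). Between genotypes 1 of 30 (Arrb1, which encodes the receptor adaptor beta-arrestin 1, 0.41, adjusted p = 0.037) was called in injured nerves. In contralateral nerves 2 of 22 were called higher (Dock2 and Prex1) and 2 lower (Rac1 and Gnai1). Of all genes 4.09% were called higher and 4.44% lower in injured nerves, and 4.49% and 5.68% in contralateral nerves. Of 19 genes of inflammatory signalling, inducers and inhibitors among them, 13 were tested between genotypes in injured nerves. Nfkbia, an inhibitor of NF-kappaB that NF-kappaB itself induces, was higher in RaptorKO nerves (0.70, SE 0.14, adjusted p = 0.0127), as was Nfkb2 (0.45, SE 0.13, adjusted p = 0.0493), and the cytokine gene Lif was lower (-0.91, SE 0.17, adjusted p = 0.00796). In contralateral nerves Nfkbia was the 1 gene called (0.39, SE 0.097, adjusted p = 0.0308).

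The 41 IDs below the minimum are given as counts. No count was seen in any library for 9 IDs (Ccl1, a scaffold copy of Ccl19, Ccl20, Ccl26, Ccl27b, Ccr4, Ccr8, Cxcr1 and Cxcl3). Another 15 IDs held fewer than 10 counts in every library (Ccl17, Ccl21c, 2 IDs of Ccl21b, 2 of Ccl27, Ccr1l1, Ccr6, Ccr7, Ccr10, Cxcl2, Cxcl15, Cxcl17, Cxcr5 and Cxcr6). At these depths such counts show only that these transcripts were rare in the whole nerve. The remaining 17 IDs held 10 or more counts in at least 1 library.

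Of these, Ccl24, an eosinophil attractant also called eotaxin-2, held 0, 2 and 4 counts in control and 13, 24, 16 and 18 counts in RaptorKO contralateral libraries. All RaptorKO libraries were above all controls. It was called only when no count minimum was set (log2 fold change 3.21, adjusted p = 0.0236). In injured nerves it held 7, 7 and 2 counts in control and 10, 6 and 13 in RaptorKO libraries, which overlapped.

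Several rare genes were seen mainly after injury. Ccl4 held 0 to 4 counts in all 7 contralateral libraries, 13, 8 and 3 in control injured and 35, 10 and 24 in RaptorKO injured libraries. Ccl5, an attractant of T cells, held 0 to 7 counts in contralateral and 5 to 26 in injured libraries, Cxcl5, an attractant of neutrophils, 0 to 1 and 5 to 18, and Cxcr3, the receptor of Cxcl9 and Cxcl10, 0 to 2 and 2 to 18. Ccr3, the eotaxin receptor, held no count in any contralateral library, 8, 12 and 17 counts in control injured and 0, 0 and 17 in RaptorKO injured libraries. Cxcl1 held 19, 2 and 1 counts in control injured and 19, 23 and 25 in RaptorKO injured libraries, and Cxcr2, a receptor of both Cxcl1 and Cxcl5, held 12 to 32 counts in contralateral and 4 to 13 in injured libraries. Ccl22, Ccl28, Cxcl9, Ccr9 and the Ccl19 gene on chromosome 4 held at most 30, 22, 17, 10 and 15 counts. Of these genes, Ccr9, a receptor of Ccl25, held 1, 3 and 3 counts in control injured and 10, 7 and 8 in RaptorKO injured libraries, and for the others the genotypes overlapped or shared a value in injured and in contralateral nerves.

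The Ccl21 genes, ligands of Ccr7 that mark lymphatic vessels and lymphoid tissue, were seen in a single library. RaptorKO contralateral replicate 3 held 191 counts of the Ccl21a gene on chromosome 4, 75 of a Ccl21b copy and 22 of a Ccl21a copy on scaffolds, and 18 of Cxcl13, a B cell attractant, while the other 12 libraries held at most 1 count of each Ccl21 ID and at most 3 of Cxcl13. The Ccl21 copies are nearly identical, so that how reads were split among them is uncertain. The same library had the highest summed lymphatic endothelial markers of the contralateral nerves, at 82.0 CPM against 27.4 to 56.2, and the highest adipocyte markers, while its B cell markers (2.93 CPM) and T cell markers (1.98 CPM) lay within the range of the other contralateral libraries. The part of tissue attached to this nerve was not tested.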

How the data were processed

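RNA was sequenced from 13 sciatic nerves, and groups were taken from the sample labels. The authors trimmed the reads with Trimmomatic, aligned them to GRCm38 and deposited expected counts (estimated counts per gene, not normalized) from RSEM 1.2.22. Between 24.93% and 27.95% of the nonzero values per library were not whole, and all were rounded here. Of 40787 gene IDs, 40634 were matched to GENCODE M21.

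Counts were scaled with TMM factors and tested with the quasi-likelihood test of edgeR 4.0.16 (R 4.3.3), with Benjamini-Hochberg adjustment over all genes with 50 or more counts in at least 2 libraries of the comparison. The methods of the study name the exact test of edgeR, which was an alternative here, as were DESeq2 1.42.0, other scalings and filters, a replicate block, and leaving out each library. The fits were tested on simulated data. Figures were drawn with matplotlib from Python 3.11.15.

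Passing members were named, in full those called between genotypes or in the interaction and the 4 with the largest log2 fold change in each direction after injury in controls. Some results that this rule selects, though counted, are not reported here. The members and lists were chosen with earlier results of these data known. Nerves were crushed on 1 side, and the paper sequenced injured nerves with their corresponding contralateral nerves. Injured and contralateral libraries of a genotype carry matching numbers, so equal numbers probably mark 1 mouse, which the sources used here do not state outright. Libraries were treated as independent, so the main injury and interaction tests leave out such a pairing, and p-values measure the spread between libraries.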

Additional observations from a re-analysis of the deposited data

Results flagged for a closer look

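Cxcl12 was picked out because its genotype effect differed between injured and contralateral nerves, with an interaction of 0.80 on the log2 scale (edgeR adjusted p = 0.0256). The log2 fold change between genotypes was 1.11 in injured and 0.32 in contralateral nerves. The call of the interaction was lost when any of 7 single libraries was left out (edgeR adjusted p from 0.0531 to 0.0707).

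Among the 4 RaptorKO contralateral libraries, the only group large enough to check, 5 of 34 members had 1 library far from the others. Chance alone picks out about 1 in 20 for continuous values, a rate that does not apply to genes with counts in 1 library only, which are always picked out. In replicate 3 these were Ccl21a on chromosome 4 (18.0 CPM), the scaffold copies of Ccl21b (7.09 CPM) and Ccl21a (2.08 CPM), and Cxcr3 (0.189 CPM, from 2 counts). In replicate 4 it was Ccl4 (0.127 CPM, from 1 count). No passing member was picked out in this way.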

How the results depend on the processing

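Of the values of single genes under the alternatives, 1302 kept their side of the threshold, 12 lost the call, 5 gained it and 0 reversed while called. With no count minimum, 5 members were higher in RaptorKO injured nerves (Ccl11 and Ccl2 joined), beside 856 of all 21735 genes. In RaptorKO contralateral nerves 3 were higher, beside 555 of all 21890 genes. After injury 23 were higher and 4 lower in RaptorKO nerves, beside 4380 and 3851 of all 22348 genes. In control nerves 20 were higher and 3 lower after injury, beside 4849 and 4521 of all 21884 genes. The injury comparisons hold different numbers of libraries, so their counts are not set against each other. Ccl21a, among the 3 higher in RaptorKO contralateral nerves, rests on RaptorKO contralateral replicate 3. So do Ccl21a and Ccl21b, among the 4 lower after injury in RaptorKO nerves. Leaving out single libraries gave 1 to 2 members higher in RaptorKO contralateral nerves and 0 to 1 in the interaction. Leaving out both control libraries with the number 3 was chosen after seeing the data.

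Between injured and contralateral nerves, deviations of same-numbered libraries correlated at 0.067, 0.13 and 0.3 in control and at -0.024, 0.21 and 0.17 in RaptorKO nerves. Those of libraries with different numbers correlated at -0.23 to 0.14 in control and at -0.3 to 0.14 in RaptorKO nerves. Deviations were taken from means of few libraries, so these values alone do not settle whether equal numbers are pairs. The replicate block changed no call of a member in the injury comparisons or the interaction. Between genotypes equal numbers are different mice (correlations from -0.049 to 0.3). With the block there, 2 members were higher in RaptorKO contralateral nerves, as Cxcl12 was called (0.41, adjusted p = 0.00933), and of all genes 880 and 931 were called higher and lower there, against 533 and 675 without it. The cause was not tested. Scaling by library totals moved the median log2 fold change of all genes after injury to 0.20 in control and 0.19 in RaptorKO nerves and gave 5126 higher and 3176 lower genes in control, against 4032 and 4087, and 4708 and 2835 in RaptorKO nerves, against 3811 and 3561. It changed no call of a member. The low counts of Ccl12, Ccl24 and the other rare members limit what can be said of them at this depth.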
